A study of Mus musculus with 20 samples.

Results

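The response to oxaliplatin was compared between 2 tissues of the mouse, kidney and bone marrow, gene by gene. For each gene the quantity of interest is the interaction of tissue and treatment, that is, the log2 fold change of oxaliplatin over vehicle in kidney minus that in marrow. All 20 libraries of the series were used, 5 in each of 4 groups, and the kidney and marrow count tables were joined by gene identifier over 55486 genes. Of these, 17507 genes, 13452 of them protein-coding, had enough counts in both tissues to be tested in both. The mice were C57BL/6 with no engineered allele, 10 weeks old when dosing began. The oxaliplatin groups (oxa) received oxaliplatin, a platinum drug used against colorectal cancer, at 10 mg/kg by intraperitoneal injection in 5% dextrose, and the vehicle groups (ctrl) received 5% dextrose, in both cases over 8 weeks. Marrow came from tibia and femur of mice euthanized 6 days after the final dose. That time is given under the marrow methods, and the sources used here give none for kidney by name. RNA had an integrity number above 7, and the kidney and marrow RNA were extracted by different kits, so extraction and tissue cannot be told apart in a level, although the fold change within a tissue compares libraries made the same way. The labels number the libraries 1 to 5 in every group but do not say that the same number stands for the same mouse. The p-values therefore measure the spread between these samples.

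Platinum adducts and crosslinks block replication and transcription, and the cell answers through p53, a transcription factor that turns on cell cycle inhibitors, repair genes and death genes. Marrow makes blood by constant division of its progenitors, and is a main site of platinum toxicity, and red cell precursors are among its most active cells. The adult kidney, by contrast, is made mainly of tubule cells that rarely divide, takes up and excretes platinum, and senses oxygen to set the output of erythropoietin, the hormone that drives red cell production in marrow.

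Defining markers matched the tissue labels. Umod, the main protein of the thick ascending limb, ranged from 1912 to 2706 CPM over the 10 kidney libraries and did not exceed 0.139 CPM in marrow, and Mpo, the peroxidase of neutrophil granules, ranged from 1345 to 2094 CPM over the 10 marrow libraries and did not exceed 0.108 CPM in kidney. CPM here are counts relative to the library size after TMM scaling within the tissue, so a level is read between libraries of the same tissue and not between tissues. The methods speak of male and female mice. The 4 Y-linked genes measured nevertheless summed to between 82.9 and 185 CPM in every library and Xist, the RNA that silences an X chromosome in females, did not exceed 3.03 CPM. Total counts ranged from 24393007 to 28304953 in vehicle kidneys, from 26314983 to 30925430 in oxaliplatin kidneys, from 31062858 to 39293176 in vehicle marrows and from 30660153 to 41140527 in oxaliplatin marrows. At this depth the median standard error of a log2 fold change was 0.155 in kidney and 0.152 in marrow, and that of the interaction 0.22.

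Some oxaliplatin libraries stood apart from the others of their group. Oxaliplatin kidneys 1 and 5 had 0.00465% and 0.00468% of their counts in hemoglobin genes, below the 0.0222% to 0.0727% of oxaliplatin kidneys 2 to 4 and the 0.0248% to 0.0403% of the vehicle kidneys. The same 2 kidneys had the highest summed levels of glycolysis genes, 12513 and 12636 CPM against 7941 to 9248 CPM in the other 3. Oxaliplatin marrows 2 and 3 had 0.215% and 0.171% of counts in mitochondrial genes, against 0.589% to 0.765% in the other 8 marrow libraries. Oxaliplatin marrows 3 and 4 had neutrophil genes summing to 12100 and 15153 CPM, against 24972 to 36032 CPM in the other 8. The fits were repeated without oxaliplatin kidneys 1 and 5, without oxaliplatin marrows 2 and 3 and without oxaliplatin marrows 3 and 4. Counts of 3 or more members of a gene list that moved by over 1.5 times are given below both ways.

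Over all genes tested, the fold changes of the tissues were nearly uncorrelated. At an adjusted p under 0.05 in edgeR's quasi-likelihood test and a fold change beyond 1.5, the interaction was called for 4983 of the 17507 genes (28.5%), the kidney response being the higher in 2714 (15.5%) and the lower in 2269 (13.0%). Which direction was the more frequent depended on the processing and the libraries, with 2487 higher and 2556 lower under DESeq2 size factors, 2374 and 2677 under library size alone, 2396 and 2743 under TMM over all 20 libraries, 2105 and 2199 with at least 10 counts in every library, and 2263 and 2321 without oxaliplatin marrows 2 and 3, which are described above. In kidney 1160 genes rose (6.63%) and 500 fell (2.86%), whereas in marrow 2288 rose (13.1%) and 2203 fell (12.6%). Log2 fold changes had an SD over genes of 0.493 in kidney and 0.796 in marrow. Across the 17507 genes the fold changes of the tissues had a Pearson r of 0.0826 and a Spearman rho of -0.0425, and they had the same sign for 45.9% of genes. Over the 811 genes called in both tissues r was 0.234 and rho 0.159. Genes are not independent replicates, and these points share their 4 groups of libraries.

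**Figure D1:**
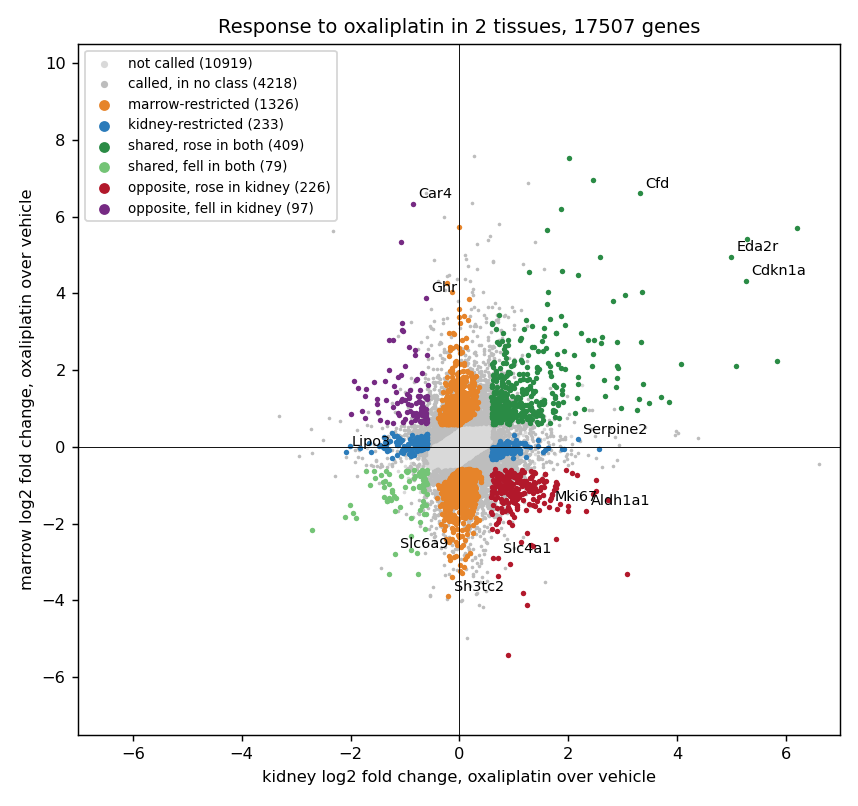
Each point is 1 of the 17507 genes, with the log2 fold change of oxaliplatin over vehicle in kidney on the horizontal axis and in marrow on the vertical axis, coloured by response class. Genes called in both tissues fill all 4 corners, with 488 in the same-direction corners and 323 in the opposite ones.

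Genes called in both tissues fell into shared and opposite responses. Of 811 such genes, 488 (60.2%) moved the same way, 409 up and 79 down, and 323 moved in opposite directions, 226 up in kidney and down in marrow and 97 the reverse. Shared genes were 29.4% of the genes called in kidney and 10.9% of those called in marrow, and opposite genes were 19.5% and 7.19%. Among the 488 shared genes the size of the response differed by the interaction test for 131, the change being larger in marrow for 106 and larger in kidney for 25. A gene was named restricted to a tissue where it was called there, the interaction was called, and the 95% interval of the fold change in the other tissue lay within 1.5-fold. By that measure 233 genes were kidney-restricted (109 up, 124 down) and 1326 marrow-restricted (624 up, 702 down). A further 296 genes were called in kidney alone and 952 in marrow alone without a call of the interaction, so that a difference between the tissues was not shown for them. For 1248 genes the interaction was called although neither tissue was. Genes named by size in a class were required to have no overlap of groups in the tissues where they were called, so their separation below is a description. Over all genes tested the groups did not overlap for 20.7% in kidney and 28.1% in marrow. Car4 reached the minimum of counts in marrow only through the oxaliplatin libraries, so it had to rise there to be tested, and Eda2r in both tissues and Psrc1 in kidney reached it in only some of the vehicle libraries and needed oxaliplatin libraries to pass. For these 3 genes no p-value of a rise or of the interaction is given. In bulk tissue, fewer cells of a type and less RNA per cell cannot be told apart, which bears on every fold change given here.

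Scaling by library size in place of TMM moved the median log2 fold change of all genes from 0.03 to 0.14 in kidney and from -0.03 to 0.15 in marrow. Among called genes the fraction that rose then went from 69.9% to 83.1% in kidney and from 50.9% to 67.9% in marrow. Under library size alone 623 genes rose and 35 fell in both tissues. Without oxaliplatin kidneys 1 and 5, 231 of the 409 genes that rose in both tissues and 134 of the 226 that rose in kidney and fell in marrow stayed in their class, with every one of the 409 and 226 keeping its signs.

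A rise of p53 targets was common to both tissues. Of 28 listed p53 target genes tested, 16 rose and none fell in kidney, 15 rose and 2 fell in marrow, and 11 rose in both. The median log2 fold change of the list was 0.79 in kidney and 0.63 in marrow, against 0.03 and -0.03 for all genes. Summed over the list, oxaliplatin kidneys held 1783 to 2158 CPM against 1070 to 1154 CPM with vehicle, and oxaliplatin marrows held 1160 to 1446 CPM against 871 to 974 CPM, with no overlap in either tissue.

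Cdkn1a (chr17:29090976-29100727, GRCm38), which encodes the cyclin-dependent kinase inhibitor p21, measured 2.52, 1.83, 3.57, 3.13 and 5.03 CPM in the vehicle kidneys and 159.8, 116, 98.7, 84.7 and 157 CPM in the oxaliplatin kidneys. Marrow gave 6.49, 7.08, 6.91, 6.65 and 7.68 CPM with vehicle and 158, 151, 153, 156 and 83.7 CPM with oxaliplatin. Every oxaliplatin library lay more than 10-fold above every vehicle library of its tissue, and oxaliplatin marrow 5 was the lowest of its group. The log2 fold change was 5.26 (SE 0.23, adjusted p = 2.27e-11) in kidney and 4.33 (SE 0.21, adjusted p = 4.54e-12) in marrow, and the interaction was 0.93 (SE 0.31, adjusted p = 0.0208), the rise being the larger in kidney. Eda2r (chrX:97333840-97377216), a death receptor of the TNF receptor family, measured 0.393, 0.284, 0.458, 0.257 and 0.171 CPM in vehicle kidneys and 11.6, 8.01, 8.32, 10.2 and 12.1 CPM in oxaliplatin kidneys. Its marrow values were 0.271, 0.124, 0.637, 0.177 and 0.139 CPM with vehicle and 8.87, 8.36, 10.1, 10.3 and 4.33 CPM with oxaliplatin. These groups did not overlap in either tissue, and the log2 fold changes were 4.99 in kidney and 4.95 in marrow. As Eda2r needed oxaliplatin libraries to be tested in both tissues, no test of their difference is given.

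Other p53 targets rose in both tissues by unequal amounts. Zmat3, an RNA-binding zinc finger protein, measured 49.4, 50.6, 53.2, 44.9 and 50.1 CPM in vehicle kidneys and 139, 139.8, 134, 136 and 161 CPM in oxaliplatin kidneys. In marrow it went from 11.1, 14.3, 13.3, 13.6 and 13 CPM to 95.7, 95.7, 94.2, 91.8 and 66.4 CPM. The rise was the larger in marrow, with log2 fold changes of 1.52 in kidney and 2.76 in marrow and an interaction of -1.25 (SE 0.13, adjusted p = 2.72e-07). Phlda3, which restrains Akt signalling, also rose more in marrow, at 3.95 against 3.04 (interaction -0.91, SE 0.32, adjusted p = 0.027). For Ephx1, the microsomal epoxide hydrolase, the order was the other way, at 2.18 in kidney and 1.63 in marrow, although its interaction of 0.55 (SE 0.15, adjusted p = 0.00651) fell short of 1.5-fold. Ccng1 (cyclin G1) changed on the log2 scale by 1.22 and 1.49, Plk2 (a stress-induced polo-like kinase) by 1.93 and 2.04, and Bax (a pore-forming death protein) by 0.67 and 0.70, in kidney and marrow respectively, without a call of the interaction.

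A few targets broke the pattern. Btg2, an antiproliferative gene, measured 18.9, 17.6, 15, 16.5 and 16.6 CPM in vehicle kidneys and 45, 56.6, 28.7, 29 and 57.7 CPM in oxaliplatin kidneys, and 181, 228, 196, 232 and 187 CPM in vehicle marrows and 79.8, 87, 59.8, 59.8 and 72.8 CPM in oxaliplatin marrows. It thus rose in every treated kidney and was lower in every treated marrow, the only gene of the 28 called in opposite directions, with an interaction of 2.87 (SE 0.24, adjusted p = 1.01e-08). Psrc1, a microtubule-binding protein of the spindle, rose on the log2 scale by 4.01 in kidney, from 0.487 ± 0.294 to 7.82 ± 1.6 CPM (SD, n = 5), and its log2 fold change in marrow was 0.37 (SE 0.19, adjusted p = 0.117). Gdf15, a secreted stress cytokine, rose on the log2 scale by 1.68 in kidney and gave 0.40 (SE 0.22, adjusted p = 0.159) in marrow (interaction 1.28, SE 0.31, adjusted p = 0.00274). Sesn1, a sestrin that restrains mTORC1, fell in marrow, from 68.9 ± 6.27 to 42.5 ± 2.37 CPM, and gave 0.18 (SE 0.10, adjusted p = 0.232) in kidney.

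**Figure D2:**
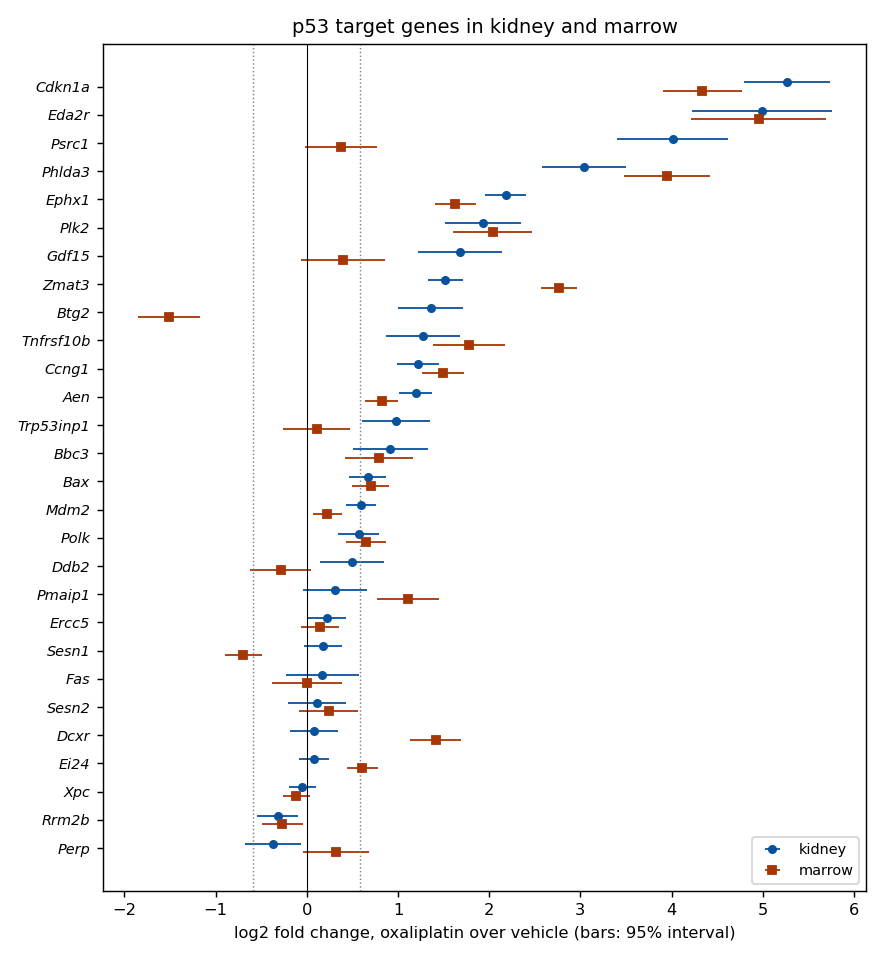
Log2 fold change of oxaliplatin over vehicle in kidney and in marrow for the 28 listed p53 target genes, with bars for the 95% interval and dotted lines at a 1.5-fold change. Points of both tissues sit far to the right for Cdkn1a and Eda2r, and on opposite sides of 0 for Btg2.

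Genes of the extracellular matrix also rose in both tissues. Of 19 collagen and matrix genes tested, 15 rose in kidney, 14 rose in marrow, 12 rose in both and none fell in either, with median log2 fold changes of 1.24 and 1.30. Col6a1, a chain of the microfibrillar collagen VI, measured 17, 19.5, 22.2, 18.6 and 23.4 CPM in vehicle kidneys and 242, 90.8, 155, 172 and 337 CPM in oxaliplatin kidneys. In marrow it measured 43.7, 43.9, 56.3, 56.3 and 40 CPM with vehicle and 143, 68.5, 106, 200.3 and 52.8 CPM with oxaliplatin. The kidney groups were far apart while the lowest oxaliplatin marrow lay below the highest vehicle marrow, and the kidney rise was the larger (3.31 against 1.25, interaction 2.06, SE 0.43, adjusted p = 0.000845). Sparc, a matrix glycoprotein of bone and basement membrane, changed on the log2 scale by 1.11 (SE 0.21, adjusted p = 0.000947) in kidney and 1.73 (SE 0.21, adjusted p = 1.05e-06) in marrow. Of the endothelial genes, 6 of 16 rose in kidney and 9 of 16 in marrow. Cdh5, the cadherin of endothelial junctions, changed on the log2 scale by 1.0 and 1.07. Without oxaliplatin kidneys 1 and 5, the matrix genes that rose in kidney were 12 and the endothelial ones 3.

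Glycolysis genes rose in kidney and in marrow, and in kidney the sizes rested partly on the libraries named above. Of 20 glycolysis genes 12 rose in kidney, 10 rose in marrow and 5 rose in both, with medians of 0.76 and 0.58. Of 17 hypoxia targets outside glycolysis 7 rose in kidney, 8 rose and 1 fell in marrow and 3 rose in both, with medians of 0.68 and 0.95. Without oxaliplatin kidneys 1 and 5, 8 glycolysis genes rose in kidney and 4 hypoxia targets rose and 1 fell there, with medians of 0.40 and 0.31. The hypoxia list summed to 1892 to 3115 CPM in vehicle kidneys and 1891 to 3953 CPM in oxaliplatin kidneys, and to 473 to 517 CPM in vehicle marrows and 477 to 706 CPM in oxaliplatin marrows, so its groups overlapped in both tissues. The glycolysis list summed to 6294 to 7048 CPM in vehicle kidneys, so all 5 oxaliplatin kidneys lay above them. Pfkl, the liver-type phosphofructokinase, changed on the log2 scale by 1.55 (SE 0.19, adjusted p = 1.15e-05) in kidney and 1.16 (SE 0.19, adjusted p = 3.91e-05) in marrow, and Eno1, an enolase, by 1.01 (SE 0.14, adjusted p = 3.26e-05) and 0.84 (SE 0.14, adjusted p = 3.76e-05). Slc16a3, which exports lactate, differed between the tissues, with 0.668, 1.5, 1.74, 1.42 and 1.36 CPM in vehicle kidneys and 28.6, 4.87, 12.2, 14.7 and 43.8 CPM in oxaliplatin kidneys, oxaliplatin kidneys 1 and 5 again being the highest. Its change was 3.97 (SE 0.48, adjusted p = 5.33e-06) in kidney and 0.41 (SE 0.35, adjusted p = 0.369) in marrow (interaction 3.56, SE 0.59, adjusted p = 5.79e-05). Slc2a3, a glucose carrier, had log2 fold changes of 2.42 in kidney and 0.47 in marrow (interaction 1.95, SE 0.47, adjusted p = 0.00214).

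The other shared rises chosen for their size were Ppp1r3c and Cfd. Ppp1r3c, which directs a phosphatase to glycogen, rose from 0.837 ± 0.536 to 8.72 ± 4.43 CPM in kidney and from 0.548 ± 0.25 to 9.07 ± 2.68 CPM in marrow (SD, n = 5), with log2 fold changes of 3.36 and 4.03 and an interaction of -0.67 (SE 0.61, adjusted p = 0.402). Cfd, the complement protease also called adipsin and made by fat cells, rose more in marrow, from 8.12, 7.66, 3.86, 13.1 and 4.03 CPM to 1162, 321, 977, 1029 and 131 CPM, than in kidney, from 7.63, 5.64, 0.779, 1.37 and 4.09 CPM to 90.8, 13.8, 18.6, 22.5 and 51.3 CPM. Its interaction was -3.29 (SE 0.89, adjusted p = 0.00657), and under limma voom it was -2.81 (adjusted p = 0.0869). The spread between oxaliplatin marrows was wide, marrows 2 and 5 being the lowest.

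Shared falls were fewer. Slc6a9 (chr4:117834506-117875198), a glycine transporter that feeds heme synthesis, measured 29.5, 33.1, 33.8, 28.9 and 34.5 CPM in vehicle kidneys and 11.4, 18.8, 16.6, 15.2 and 8.07 CPM in oxaliplatin kidneys. In marrow it measured 93.1, 96.5, 108, 85 and 75.4 CPM with vehicle and 12.2, 12.6, 16.4, 16 and 9.06 CPM with oxaliplatin. All treated libraries lay below all vehicle libraries of their tissue, and the fall was the larger in marrow, -2.78 (SE 0.17, adjusted p = 1.04e-10) against -1.19 (SE 0.18, adjusted p = 8.59e-05) in kidney (interaction 1.59, SE 0.25, adjusted p = 3.75e-05). Cpox, the coproporphyrinogen oxidase of the heme pathway, fell by 0.75 in kidney and by 1.0 in marrow on the log2 scale (adjusted p = 0.00733 and 0.000155), and without oxaliplatin kidneys 1 and 5 its kidney change was -0.74 with an adjusted p of 0.054. Gclm, the modifier subunit of the enzyme that starts glutathione synthesis, fell by 0.75 and by 1.04 on the log2 scale, Slc46a3, a lysosomal transporter, fell by 0.93 and by 0.88, and Tspan13, a tetraspanin, fell by 1.08 and by 0.75, in kidney and marrow respectively. None of Cpox, Gclm, Slc46a3 and Tspan13 had an interaction call. Ighm, the heavy chain of IgM made by B cells, went from 4.56 ± 0.298 to 1.91 ± 0.256 CPM in kidney and from 603 ± 122 to 233 ± 45.6 CPM in marrow (SD, n = 5), and its interaction was 0.12 (SE 0.21, adjusted p = 0.693). Odc1, the enzyme that commits ornithine to polyamines, fell by 1.44 on the log2 scale in kidney and by 0.73 in marrow, and with a covariate of Y-linked expression its marrow change was -0.59 (adjusted p = 0.078).

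Mitosis genes rose in kidney and fell in marrow. Of 21 mitosis genes tested, 16 rose in kidney, 19 fell in marrow, 15 did both and none moved the other way, and the interaction was called for all 21. Their median log2 fold change was 1.07 in kidney and -1.02 in marrow. Of 26 replication and S-phase genes, 22 fell in marrow and 5 rose in kidney (3 without oxaliplatin kidneys 1 and 5), with the interaction called for 20. For crosslink repair genes, which include the Fanconi anemia pathway, 4 of 19 rose in kidney, 9 fell in marrow and 9 had an interaction call.

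The promoters of 3 mitosis genes of this class are shown, those of largest interaction among 6 that hold both of 2 motifs before the start. Genes of a single chromosome were left out of this choice. The 2 motifs, of 6 searched, were those whose share in this class was furthest from that in all promoters. These were CCAAT, bound by NF-Y, and TTTGAA, the core of the CHR element through which many genes of late cell cycle are repressed in resting cells. Each is given 5′ to 3′ on the coding strand, from RefSeq on GRCm38.p6, and the capitals mark CCAAT or TTTGAA on either strand (ATTGG and TTCAAA are the reverse complements). The stretches end 72, 4 and 0 bases before the start site for Mki67, Prc1 and Top2a.
Mki67 (chr7:135716452-135716587, minus strand): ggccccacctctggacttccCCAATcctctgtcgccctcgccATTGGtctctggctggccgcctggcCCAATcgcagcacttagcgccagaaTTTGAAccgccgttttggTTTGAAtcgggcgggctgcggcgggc
Prc1 (chr7:80294394-80294471, plus strand): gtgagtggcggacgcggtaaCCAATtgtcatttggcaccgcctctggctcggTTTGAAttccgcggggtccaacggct
Top2a (chr11:99024190-99024436, minus strand): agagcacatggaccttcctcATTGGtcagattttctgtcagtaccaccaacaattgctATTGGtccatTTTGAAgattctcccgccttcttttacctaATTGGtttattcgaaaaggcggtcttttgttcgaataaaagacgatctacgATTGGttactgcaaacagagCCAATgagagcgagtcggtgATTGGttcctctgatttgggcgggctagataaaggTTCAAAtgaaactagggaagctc
Mki67 encodes the Ki-67 antigen of dividing cells, Prc1 a protein that bundles the spindle midzone, and Top2a the topoisomerase that untangles sister chromosomes. Windows from 250 bases before to 50 after the start were given for 11312 of the genes tested, 14473 windows in all. CCAAT was found on either strand in 58.4% of the 185 windows of the genes that rose in kidney and fell in marrow, against 37.0% of all windows, and TTTGAA in 34.1% against 12.3%. The windows came from 158 of the 226 genes. The other motifs were found in 5.41% of them for CACGTG (the E-box), 4.86% for GAAA, any 2 bases and GAAA again (the core of the interferon-stimulated response element), 2.7% for TGACTCA (of AP-1) and 56.2% for GGGCGG (the GC box), against 9.56%, 3.03%, 3.88% and 59.8% of all windows. Leaving out the mitosis, S-phase and crosslink repair lists left 204 of the 226 genes. Genes of cell division outside these short lists may remain among them. The shares of CCAAT and TTTGAA in the 204 genes were 55.4% and 30.7% over 166 windows. In the class with the reverse directions they were 35.6% and 13.3%, and in the genes that rose in both tissues 38% and 9.84%. A match to these letters is a description of the window and not a measured binding site.

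Mki67 measured 3.89, 3.82, 3.02, 2.36 and 3.97 CPM in the vehicle kidneys and 6.11, 13.8, 9.16, 13 and 11.5 CPM in the oxaliplatin kidneys. Its marrow values were 3484, 3432, 3507, 3395 and 2907 CPM with vehicle and 945, 1172, 1302, 1067 and 1179 CPM with oxaliplatin. Every treated kidney was above every vehicle kidney and every treated marrow below every vehicle marrow, oxaliplatin kidney 1 being the lowest of the treated kidneys. The log2 fold change was 1.65 (SE 0.18, adjusted p = 2.28e-06) in kidney and -1.56 (SE 0.16, adjusted p = 6.83e-08) in marrow, with an interaction of 3.21 (SE 0.24, adjusted p = 2.37e-09). The kidney counts behind these values were 55 to 99 reads per vehicle library and 159 to 382 per oxaliplatin library.

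Top2a measured 1.89, 1.5, 2.29, 1.37 and 2.13 CPM in vehicle kidneys and 5.3, 7.9, 4.6, 7.31 and 5.93 CPM in oxaliplatin kidneys, and 873, 940.3, 882, 968 and 798 CPM in vehicle marrows and 355, 456, 563, 415 and 409 CPM in oxaliplatin marrows. Again neither tissue showed an overlap of groups, and the interaction was 2.78 (SE 0.22, adjusted p = 3.45e-09). Prc1 rose on the log2 scale by 1.70 in kidney, from 0.671 ± 0.194 to 2.17 ± 0.63 CPM (SD, n = 5), and fell by 1.25 on the log2 scale in marrow. Cdc25b, the phosphatase that triggers entry into mitosis, had an interaction of 3.01 (SE 0.20, adjusted p = 4.45e-10), with changes of 0.97 in kidney and -2.04 in marrow. Rrm2, the inducible subunit of ribonucleotide reductase, changed on the log2 scale by 1.35 and -1.0, and Brca1, of homologous recombination, by 1.36 and -1.36, each with the kidney value first and the interaction called. The mitosis list as a whole summed to 25.9 to 36.4 CPM in vehicle kidneys and 48.1 to 75.3 CPM in oxaliplatin kidneys, and to 6980 to 8486 CPM in vehicle marrows and 2864 to 4407 CPM in oxaliplatin marrows. Late erythroid genes, which mark late red cell precursors in marrow, fell in the same libraries from 41472 to 67177 CPM to 5914 to 13254 CPM in sum. The part of the red cell lineage in the fall of division genes was not tested.

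**Figure D3:**
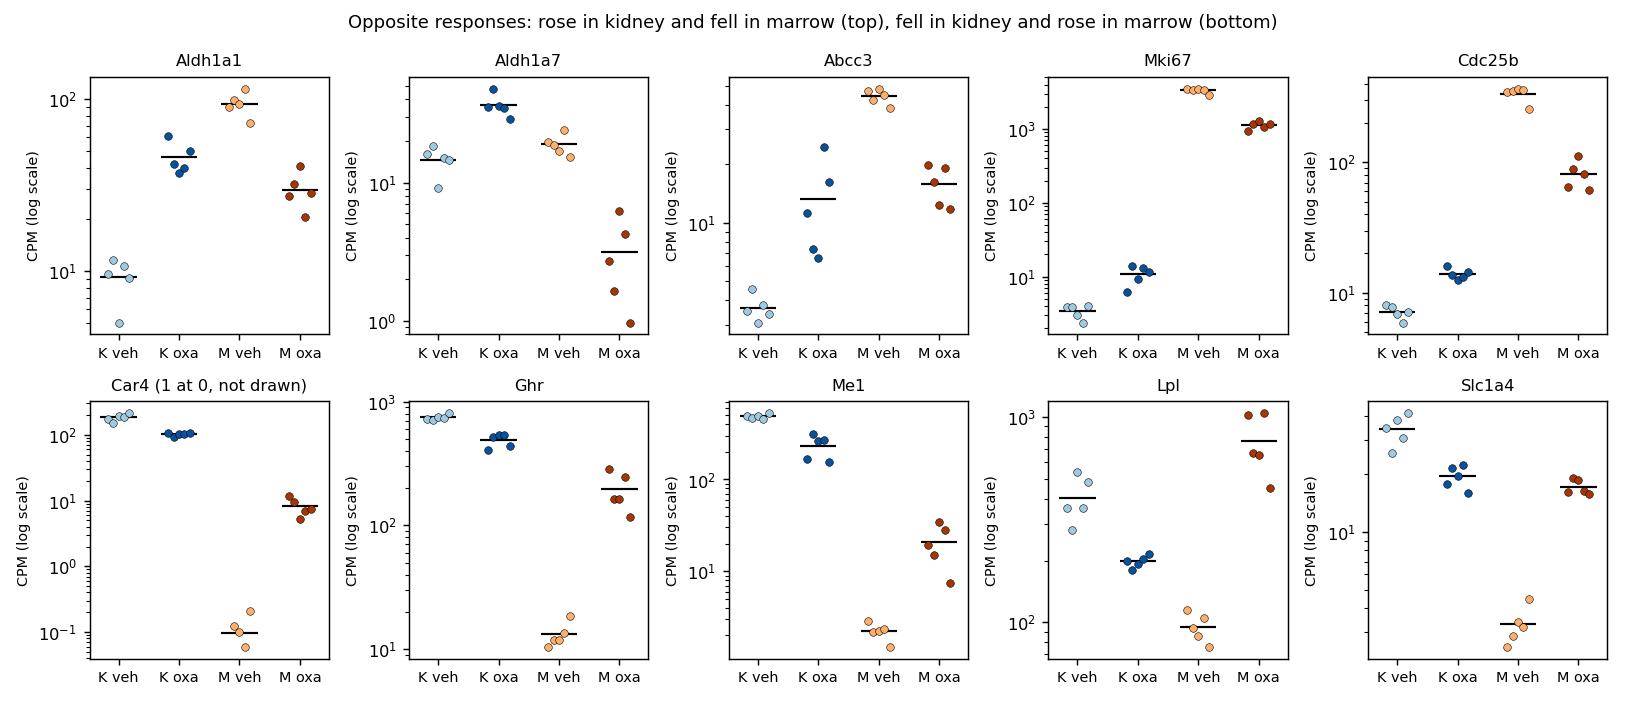
CPM on a log axis in each library for the 10 genes of opposite direction named by size, in kidney with vehicle, kidney with oxaliplatin, marrow with vehicle and marrow with oxaliplatin, with a bar at each mean; 1 vehicle marrow at 0 for Car4 is not drawn. In each panel the step between the kidney groups and that between the marrow groups run in opposite directions.

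Outside cell division, Aldh1a1, Aldh1a7 and Abcc3 were named by size in the class that rose in kidney and fell in marrow. Aldh1a1 (chr19:20492715-20643465), which makes retinoic acid and marks several stem cell types, measured 9.59, 11.6, 4.99, 10.6 and 9.04 CPM in vehicle kidneys and 61.4, 41.7, 37.3, 39.7 and 49.9 CPM in oxaliplatin kidneys. In marrow it measured 90.3, 98.4, 93.3, 115 and 72.3 CPM with vehicle and 27.1, 32, 40.7, 20.5 and 28.4 CPM with oxaliplatin. Its groups did not overlap in either tissue, and it had an interaction of 3.98 (SE 0.27, adjusted p = 1.03e-09). The neighbouring Aldh1a7 had an interaction of 3.87 (SE 0.42, adjusted p = 5.85e-07). These 2 genes are close copies, and counting of unambiguous reads may have lost or misplaced some of theirs, so the split between them is uncertain. Abcc3, an exporter of conjugated drugs and bile salts, changed on the log2 scale by 1.84 (SE 0.27, adjusted p = 8.6e-05) in kidney and -1.49 (SE 0.25, adjusted p = 5.17e-05) in marrow, the treated kidneys spreading from 6.59 to 24.5 CPM. Slc4a1, the band 3 anion exchanger that serves both red cells and the intercalated cells of the collecting duct, rose on the log2 scale by 0.70 in kidney, from 49.9 ± 6.61 to 81.1 ± 22.8 CPM (SD, n = 5), and fell by 2.90 on the log2 scale in marrow. Oxaliplatin kidneys 1 and 5, of lowest hemoglobin share, had 67.1 and 55.8 CPM against 76.0 to 114 CPM in kidneys 2 to 4. Ebf1, a transcription factor of B cell commitment and of stromal cells, changed on the log2 scale by 0.76 in kidney and -1.04 in marrow (interaction 1.81, SE 0.21, adjusted p = 1.05e-06).

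The reverse pattern, a fall in kidney with a rise in marrow, was found in 97 genes, of which Car4, Ghr, Me1, Lpl and Slc1a4 were named by size. Car4 (chr11:84957786-84966044), a carbonic anhydrase held on the outer membrane of tubule and capillary cells, measured 174, 154, 196, 184 and 213 CPM in vehicle kidneys and 107, 91.4, 101.2, 101.1 and 108 CPM in oxaliplatin kidneys. Vehicle marrows had 0, 0.124, 0.101, 0.0591 and 0.208 CPM, from 0 to 6 reads each, and oxaliplatin marrows had 11.9, 9.66, 5.32, 6.9 and 7.35 CPM. Since Car4 was tested only through its treated marrows and was chosen for size and lack of overlap, only its values are given. Ghr (chr15:3317760-3583492), the growth hormone receptor, measured 725, 706, 757, 739 and 807 CPM in vehicle kidneys and 406, 515, 537, 542 and 436 CPM in oxaliplatin kidneys. Its marrow values were 10.4, 11.7, 11.9, 13.5 and 18.3 CPM with vehicle and 287, 163, 163, 247 and 118 CPM with oxaliplatin. The groups were separate in both tissues, the change being -0.62 (SE 0.18, adjusted p = 0.0194) in kidney and 3.89 (SE 0.19, adjusted p = 3.36e-12) in marrow.

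A further 3 genes of this class were named by size. Me1, the malic enzyme that supplies NADPH for lipid synthesis, changed on the log2 scale by -1.06 in kidney and 3.24 in marrow (interaction -4.30, SE 0.41, adjusted p = 7.48e-08). Lpl, the lipase that frees fatty acids from lipoproteins, measured 282 to 541 CPM in vehicle kidneys and 179.6 to 215 CPM in oxaliplatin kidneys, and 75.8 to 115 CPM in vehicle marrows and 452 to 1043 CPM in oxaliplatin marrows (interaction -4.04, SE 0.27, adjusted p = 7.76e-10). Slc1a4, a carrier of neutral amino acids, changed on the log2 scale by -0.82 and 2.38 (interaction -3.20, SE 0.20, adjusted p = 2.67e-10). Fat cell genes as a group rose in marrow, 14 of 15 with a median of 2.89, while in kidney 6 rose and 2 fell with a median of 0.24, and 12 of 15 had an interaction call. Cidec, a lipid droplet protein of fat cells, changed on the log2 scale by 7.54 (SE 0.56, adjusted p = 6.46e-10) in marrow and 2.01 (SE 0.50, adjusted p = 0.00637) in kidney, and Scd1, the desaturase of fatty acid synthesis, by 4.46 and -0.22. The fat cell list summed to 747 to 963 CPM in vehicle marrows and to 6399, 3612, 8918, 8751 and 1942 CPM in oxaliplatin marrows 1 to 5, so all treated marrows were above all vehicle ones. In kidney the sum was lower in every treated library, at 1306 to 1598 CPM with vehicle and 1039 to 1303 CPM with oxaliplatin, although more genes of the list rose than fell. Skeletal muscle genes also rose in marrow, 5 of 5 tested. The 15 listed genes, with Ttn the most abundant, summed to 43.7 to 360 CPM with vehicle and 145 to 1979 CPM with oxaliplatin. These sums overlapped. The part of muscle or fat around the bone in the marrow values was not tested.

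Genes of fatty acid oxidation and ketogenesis rose in marrow for 9 of 21, with no fall, while in kidney 2 fell and 1 rose, and 2 were called in opposite directions. The interaction was called for 12, in each case with the kidney response the lower, and the medians were -0.30 in kidney and 0.42 in marrow. Without oxaliplatin kidneys 1 and 5, 4 fell and none rose in kidney. Acadm, the medium-chain dehydrogenase of mitochondria, changed on the log2 scale by -0.63 and 0.82 (interaction -1.45, SE 0.13, adjusted p = 4.17e-08). Cpt2, which admits acyl groups to the mitochondrial matrix, is a gene for which the interaction was called (-0.95, SE 0.18, adjusted p = 0.000223) while its changes of -0.54 in kidney and 0.40 in marrow stayed under 1.5-fold.

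The complement initiators of tissue macrophages also moved in opposite directions. C1qa measured 11.2, 10.8, 9.8, 10.6 and 11.6 CPM in vehicle kidneys and 8.06, 4.62, 6.02, 6.04 and 3.91 CPM in oxaliplatin kidneys. In marrow it measured 126, 125, 135, 168 and 107 CPM with vehicle and 407, 429, 223, 282 and 329 CPM with oxaliplatin. It fell in kidney and rose in marrow with no overlap of groups (interaction -2.26, SE 0.25, adjusted p = 4.73e-07), and C1qc did the same (-0.95 and 1.11, interaction -2.06, SE 0.23, adjusted p = 5.61e-07). Over 13 macrophage genes tested, 3 rose and 5 fell in kidney while 6 rose and none fell in marrow. Summed over the 18 listed genes, macrophage markers were at 280 to 311 CPM in vehicle kidneys and 241 to 267 CPM in oxaliplatin kidneys, led by Csf1r with vehicle and by Mertk with oxaliplatin, and at 4360 to 5222 CPM in vehicle marrows and 2926 to 6878 CPM in oxaliplatin marrows, led by Lyz2. The marrow sums thus overlapped while the C1q genes did not.

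MHC class II genes, which present antigen on dendritic cells, macrophages and B cells, fell in kidney. Of 9 tested, 7 fell in kidney with a median of -0.89, while in marrow 1 rose and 2 fell with a median of 0.00. H2-Aa, a class II alpha chain, measured 50.5, 50.1, 54, 45.6 and 58.8 CPM in vehicle kidneys and 35.1, 14.5, 14.4, 27.3 and 10.47 CPM in oxaliplatin kidneys, all treated kidneys being lower. Marrow values were 97.6, 135, 99.3, 145 and 132 CPM with vehicle and 131, 104, 85.5, 192 and 96.8 CPM with oxaliplatin and overlapped widely (interaction -1.35, SE 0.36, adjusted p = 0.00554). Summed over the list, vehicle kidneys were at 336 to 446 CPM, oxaliplatin kidney 1 at 354 CPM and oxaliplatin kidneys 2 to 5 at 103 to 232 CPM. The interaction was called for 4 of the 9, so the difference between tissues was shown for those 4.

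Genes of the erythroid lineage fell in marrow. Of 16 late erythroid genes tested in both tissues, all 16 fell in marrow, with a median of -2.66, and the interaction was called for all 16 (13 without oxaliplatin marrows 3 and 4), while in kidney 2 rose, none fell and the median was -0.03. Without oxaliplatin kidneys 1 and 5, 3 rose in kidney and the median was 0.40, the list summing to 912 and 944 CPM in those 2 kidneys and to 1101 to 1703 CPM in oxaliplatin kidneys 2 to 4. Early erythroid and heme genes did likewise, with 12 of 13 falling in marrow (median -1.43) and 1 of 13 in kidney (median -0.06). Xpo7 (chr14:70654246-70766628), an exportin needed for nuclear condensation in red cell precursors, measured 100.3, 100.6, 105, 96.7 and 109.9 CPM in vehicle kidneys and 99.4, 91.3, 90.5, 100.7 and 99.3 CPM in oxaliplatin kidneys. Its marrow values were 1044, 1179, 1132, 1099 and 924 CPM with vehicle and 171, 153, 146, 131 and 139 CPM with oxaliplatin. The marrow groups were far apart and the kidney groups overlapped, with a change of -2.86 (SE 0.08, adjusted p = 1.1e-15) in marrow, -0.09 (SE 0.08, adjusted p = 0.453) in kidney and an interaction of 2.77 (SE 0.11, adjusted p = 5.56e-13). Hba-a1, a hemoglobin alpha gene, was at 13974, 14914, 13954, 18075 and 10336 CPM in vehicle marrows and 2694, 3679, 1853, 1085 and 1881 CPM in oxaliplatin marrows (interaction 2.63, SE 0.76, adjusted p = 0.0101), a call lost under limma voom at 1.74 (adjusted p = 0.0978), with a replicate block at 1.91 (adjusted p = 0.0938) and without oxaliplatin marrows 3 and 4 at 2.29 (adjusted p = 0.0671), and its reads may be split with a near-identical copy. In kidney it was at 18.6, 275, 86.7, 269.8 and 18.7 CPM in the oxaliplatin libraries, kidneys 1 and 5 being the lowest, against 97.7 to 165 CPM with vehicle.

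Of 22 interferon-stimulated genes tested, 11 fell and none rose in marrow and 1 rose in kidney, 10 had an interaction call, and the medians were -0.63 in marrow and 0.06 in kidney. Rsad2, the antiviral enzyme viperin, measured 286, 313, 332, 349 and 241 CPM in vehicle marrows and 19.1, 21.3, 16.5, 17.4 and 14.2 CPM in oxaliplatin marrows. In kidney it measured 17.7, 19, 18.8, 19.3 and 22.7 CPM with vehicle and 22.5, 25.7, 23.9, 31 and 22.8 CPM with oxaliplatin. Treated marrows were all more than 10-fold lower than vehicle marrows, whereas treated kidneys overlapped with the vehicle kidney of highest value (interaction 4.47, SE 0.16, adjusted p = 1.48e-13). Isg15, a ubiquitin-like modifier, changed on the log2 scale by -3.02 (SE 0.18, adjusted p = 5.3e-11) in marrow and 0.41 (SE 0.22, adjusted p = 0.207) in kidney (interaction 3.42, SE 0.29, adjusted p = 1.04e-08). B cell genes fell in marrow too, 7 of 8, against 1 fall and 2 rises in kidney. The 20 listed B cell genes summed to 1066 to 1732 CPM in vehicle marrows and 411 to 516 CPM in oxaliplatin marrows. T and NK cell genes showed 1 fall among 7 in marrow and no call in kidney, with medians of 0.12 in marrow and -0.38 in kidney. The 19 listed genes summed to 189 to 252 CPM in vehicle marrows and 144 to 171 CPM in oxaliplatin marrows, with no overlap. Cd4 led this sum with vehicle and Nkg7 with oxaliplatin, so the lower sum does not describe the median gene.

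The marrow-restricted genes named below were chosen by size. Dab2 (chr15:6299788-6440712), an endocytic adaptor abundant in proximal tubule and in macrophages, measured 27.5, 22.6, 22.8, 28.7 and 25.1 CPM in vehicle marrows and 465, 372, 173, 278 and 241 CPM in oxaliplatin marrows. Kidney values were 483, 511, 445, 427 and 420.2 CPM with vehicle and 484, 446, 436, 454 and 457 CPM with oxaliplatin. The marrow rise was present in all 5 libraries while the kidney groups overlapped (interaction -3.60, SE 0.24, adjusted p = 6.4e-10). Fmod, the matrix proteoglycan fibromodulin, rose from 0.699 ± 0.218 to 10.2 ± 3.14 CPM in marrow (SD, n = 5) and changed on the log2 scale by 0.17 in kidney. Sod3, the extracellular superoxide dismutase, changed on the log2 scale by 3.38 in marrow and -0.01 in kidney, Npr3, the clearance receptor for natriuretic peptides, by 3.31 and 0.16, and Dusp4, a phosphatase of MAP kinases, by 2.96 and -0.19. The falls chosen for their size were Sh3tc2 (-3.89 in marrow and -0.21 in kidney), Chst3, a chondroitin sulfotransferase (-3.38 and -0.14), Sh2d4a, an SH2 adaptor (-3.29 and 0.04), Cdr2 (-3.23 and 0.01) and Cecr2, a chromatin remodelling factor (-3.14 and 0.09). The interaction adjusted p of these 10 genes did not exceed 7.81e-07.

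The kidney-restricted set was smaller. Serpine2 (chr1:79794197-79861180), the protease nexin that blocks thrombin and plasminogen activators, measured 8.96, 10.3, 10.3, 9.43 and 8.57 CPM in vehicle kidneys and 39.6, 46.7, 39.1, 50.7 and 39.5 CPM in oxaliplatin kidneys. In marrow it measured 203, 160.1, 262, 253 and 203 CPM with vehicle and 231, 177, 331, 317 and 185 CPM with oxaliplatin. The treated kidneys were all above the vehicle kidneys while the marrow groups overlapped (interaction 1.98, SE 0.23, adjusted p = 9.52e-07). Cebpd, a transcription factor of the acute phase, changed on the log2 scale by 1.62 in kidney and -0.02 in marrow, Agap2, a GTPase-activating protein, by 1.57 and -0.08, and Tmem43, an inner nuclear membrane protein, by 1.44 and 0.18. For Cebpd and Agap2 the treated kidneys were spread, from 17.9 to 49.4 and from 4.55 to 20 CPM.

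Among kidney-restricted falls, Hsd17b11 (chr5:103989762-104021919), a steroid dehydrogenase of lipid droplets, measured 369, 317, 445, 359.8 and 417 CPM in vehicle kidneys and 101.4, 121, 118, 115 and 86.7 CPM in oxaliplatin kidneys. Its marrow values were 56.3, 63.5, 62, 65.2 and 64.8 CPM with vehicle and 67.9, 64.4, 46.2, 57.1 and 69.8 CPM with oxaliplatin. The kidney fall was present in all 5 libraries and the marrow groups overlapped (interaction -1.79, SE 0.16, adjusted p = 2.37e-08). Lipo3, of a family of closely related lipases whose reads may be split, fell by 2.08 on the log2 scale in kidney and changed on the log2 scale by -0.13 in marrow. Agps, the peroxisomal enzyme of ether lipid synthesis, fell by 1.66 on the log2 scale in kidney (marrow 0.11), Nlrc4, an inflammasome sensor, by 1.47 (marrow 0.03) and Angptl7, a secreted angiopoietin-like protein, by 1.46 (marrow 0.05). All 3 androgen-responsive kidney genes measured in both tissues fell in kidney and had an interaction call, although none was in the kidney-restricted class and Odc1 fell in marrow too. The interaction was called for 2 of the 3 without each of the 3 pairs of libraries left out. The other members were Cyp4b1, a cytochrome P450 of the proximal tubule, at 4520.1 ± 205 CPM with vehicle and 1808 ± 496 CPM with oxaliplatin (SD, n = 5), and Gusb, the lysosomal glucuronidase, which changed on the log2 scale by -1.18 in kidney and 0.41 in marrow (interaction -1.59, SE 0.16, adjusted p = 1.41e-07).

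Genes with enough counts in a single tissue could not be tested for the interaction and were tested in that tissue alone. Of 1786 such kidney genes 382 were called (21.4%), 204 up and 178 down, and of 4856 such marrow genes 1154 were called (23.8%), 377 up and 777 down. Epo, which encodes erythropoietin, had 2, 0, 6, 0 and 2 reads in the vehicle kidneys and 5738, 838, 2886, 1882 and 7309 reads in the oxaliplatin kidneys, and at most 1 read in any marrow library. In CPM the treated kidneys held 206, 28.2, 104, 66 and 219, kidneys 1 and 5, of lowest hemoglobin share, being the highest and kidney 2 the lowest. Epo, and also Aire, Ccl8, Lep and C2cd4a below, reached the minimum of counts only through the oxaliplatin libraries and were then chosen for size and lack of overlap, so they had to differ and only their values are given. Slco1a1, an organic anion carrier of male proximal tubule, held 233, 218, 284, 247 and 268 CPM with vehicle and 8.07, 31.2, 36.5, 23.2 and 2.28 CPM with oxaliplatin, kidneys 1 and 5 being the lowest (log2 fold change -3.63, SE 0.59, adjusted p = 0.00353). Pzp, a protease inhibitor, fell with a log2 fold change of -3.10 (SE 0.72, adjusted p = 0.0165), and Srd5a2, a 5-alpha reductase that makes dihydrotestosterone, with -2.54 (SE 0.31, adjusted p = 8.27e-05). Dscaml1, a cell adhesion molecule, rose from 1.34 ± 0.406 to 17.8 ± 2.06 CPM (SD, n = 5), and Aire, the regulator of self-antigens best known in thymus, from 0.191 ± 0.141 to 6.68 ± 4.13 CPM.

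Of the genes measured in marrow alone, Ccl8, a chemokine that attracts monocytes, had 6, 2, 12, 24 and 8 reads with vehicle and 8181, 6309, 4245, 7347 and 3273 reads with oxaliplatin. Lep, the hormone leptin of fat cells, had 2, 0, 0, 5 and 0 and 745, 203, 560, 782 and 88 reads, and C2cd4a, a C2 domain protein induced by cytokines, had 4, 0, 0, 0 and 0 and 199, 573, 1458, 1073 and 452 reads. All 5 treated marrows were far above all vehicle marrows for each of the 3. Chst10, a sulfotransferase, fell from 31.5 ± 3.49 to 2.25 ± 0.244 CPM (SD, n = 5), and Slc30a10, a manganese exporter, from 12.3 ± 2.26 to 0.709 ± 0.404 CPM. Tac2, a tachykinin precursor, was at 8.57 ± 2.51 CPM with vehicle and 0.28 ± 0.332 CPM with oxaliplatin. It had 177 to 386 reads per vehicle marrow and 0 to 30 per oxaliplatin marrow. Tac2 reached the minimum of counts only through the vehicle libraries and was then chosen for size and lack of overlap, so only its values are given.

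Over all genes tested, 6.63% rose and 2.86% fell in kidney, 13.1% rose and 12.6% fell in marrow and 28.5% had an interaction call. The list counts that follow are to be read beside these shares. Of 23 nuclear genes of the respiratory chain none was called in either tissue, with medians of -0.24 in kidney and 0.17 in marrow and the interaction called for 2. The marrow median was 0.35 under library size alone, 0.07 without oxaliplatin marrows 2 and 3 and 0.06 without oxaliplatin marrows 3 and 4. Of 13 protein genes of the mitochondrial genome 1 fell in marrow and no interaction was called. The marrow median of these 13 was -0.48, -0.31 under library size alone, and without oxaliplatin marrows 2 and 3 it was 0.05, with no fall and 1 interaction call. The fall was not called without the other pairs of libraries either. Targets of NRF2 and glutathione genes were mixed, 3 up and 3 down of 18 in kidney, 4 up and 3 down in marrow, and 7 with an interaction call. Cholesterol genes showed 4 falls of 21 in kidney, against 4 rises and 1 fall in marrow. Of 22 genes of the integrated stress and unfolded protein responses, 7 rose and 1 fell in marrow and 2 rose in kidney, and Ppp1r15a, the phosphatase subunit GADD34, changed on the log2 scale by 0.38 in kidney and -2.31 in marrow. Clock genes gave 3 rises and 2 falls of 19 in kidney and 6 rises in marrow, with Nr1d1, the repressor REV-ERB alpha, at 1.40 and 1.2. Iron and metal genes gave 3 rises and 1 fall of 15 in kidney and 6 rises and 2 falls in marrow, with Cp, the ferroxidase ceruloplasmin, at 1.49 and 1.14. Of 14 complement genes 7 rose in kidney, 6 rose in marrow and 4 rose in both, with 6 interaction calls. Of 17 immediate early genes 6 rose in kidney, 4 rose in marrow and 2 rose in both. They had 5 interaction calls, a share near that of all genes. Sums of the 20 listed genes overlapped in kidney, at 474 to 510 CPM with vehicle and 472 to 923 CPM with oxaliplatin. They overlapped in marrow too, at 771 to 920 CPM with vehicle and 773 to 1202 CPM with oxaliplatin. Without oxaliplatin kidneys 1 and 5, the falls in kidney were 1 for NRF2 targets and 1 for cholesterol genes, and 1 iron and metal gene rose. Without oxaliplatin marrows 2 and 3, 2 cholesterol genes rose and 2 fell in marrow, and without oxaliplatin marrows 3 and 4, 1 rose and 4 fell, while 7 immediate early genes rose.

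**Figure D4:**
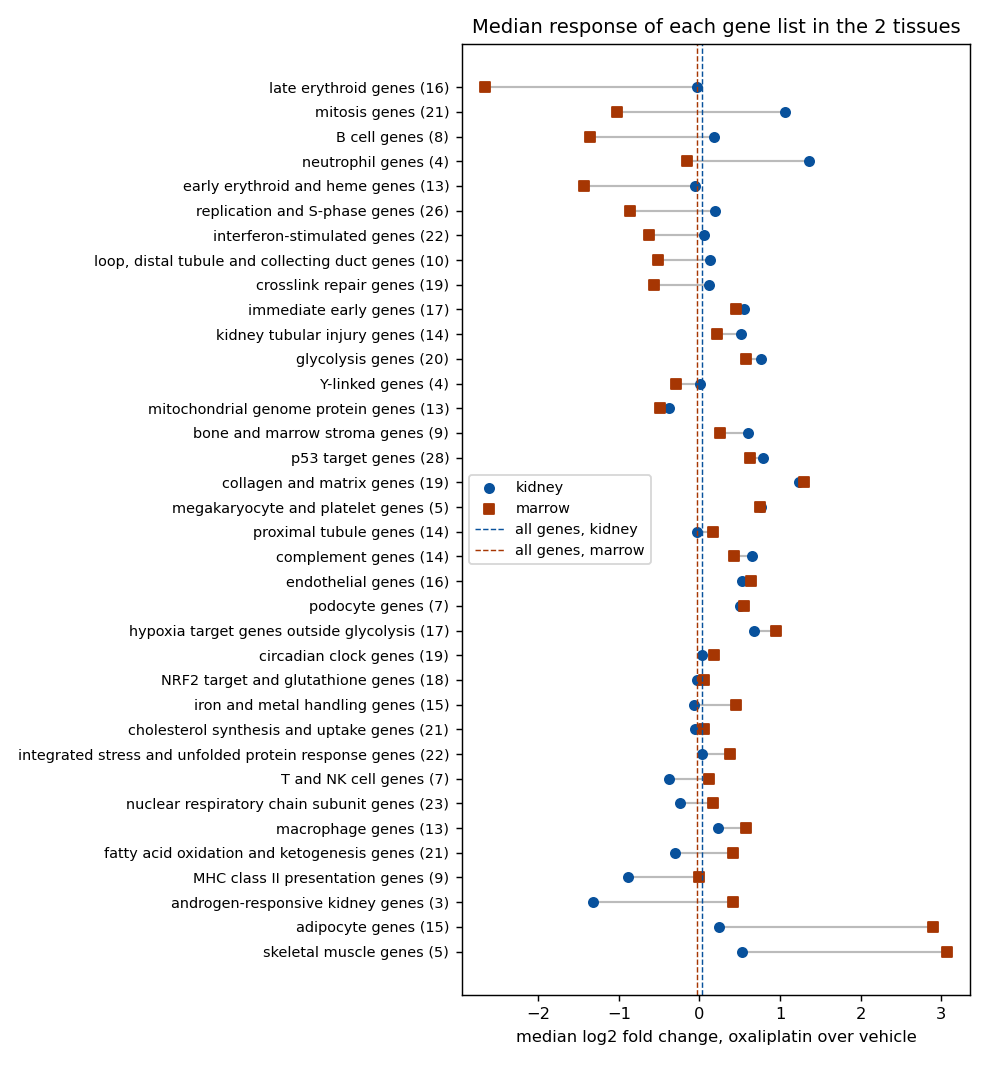
Median log2 fold change of each gene list in kidney and in marrow, with lines marking the median of all genes. Mitosis genes sit at 1.07 in kidney and -1.02 in marrow, late erythroid genes at -0.03 (0.40 without oxaliplatin kidneys 1 and 5) and -2.66, and adipocyte genes at 0.24 and 2.89.

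The remaining lists are mostly of cell types found in a single tissue, and their counts are to be read beside the same shares over all genes. Tubular injury genes gave 4 rises of 14 in kidney, or 2 without oxaliplatin kidneys 1 and 5, proximal tubule genes 1 rise and 1 fall of 14, genes of the loop, distal tubule and collecting duct no call of 10, and podocyte genes 3 rises of 7. In marrow the tubular injury genes gave 3 rises and 2 falls, the proximal tubule genes 4 rises and 3 falls, the genes of the later segments 5 falls, and the podocyte genes 3 rises. Megakaryocyte and platelet genes gave 3 rises of 5 in kidney and 4 in marrow, bone and marrow stroma genes 3 rises and 1 fall of 9 in kidney and 3 rises and 2 falls in marrow, and neutrophil genes 1 rise of 4 in kidney and no call in marrow. Without either pair of oxaliplatin marrows 3 of these 4 were called in kidney, at the same kidney median of 1.35. Summed over its 23 listed genes, the proximal tubule list was at 40786 to 45187 CPM in vehicle kidneys and 32392 to 37492 CPM in oxaliplatin kidneys, with no overlap. Of the 4 Y-linked genes none was called in either tissue and 1 had an interaction call.

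**Figure D5:**
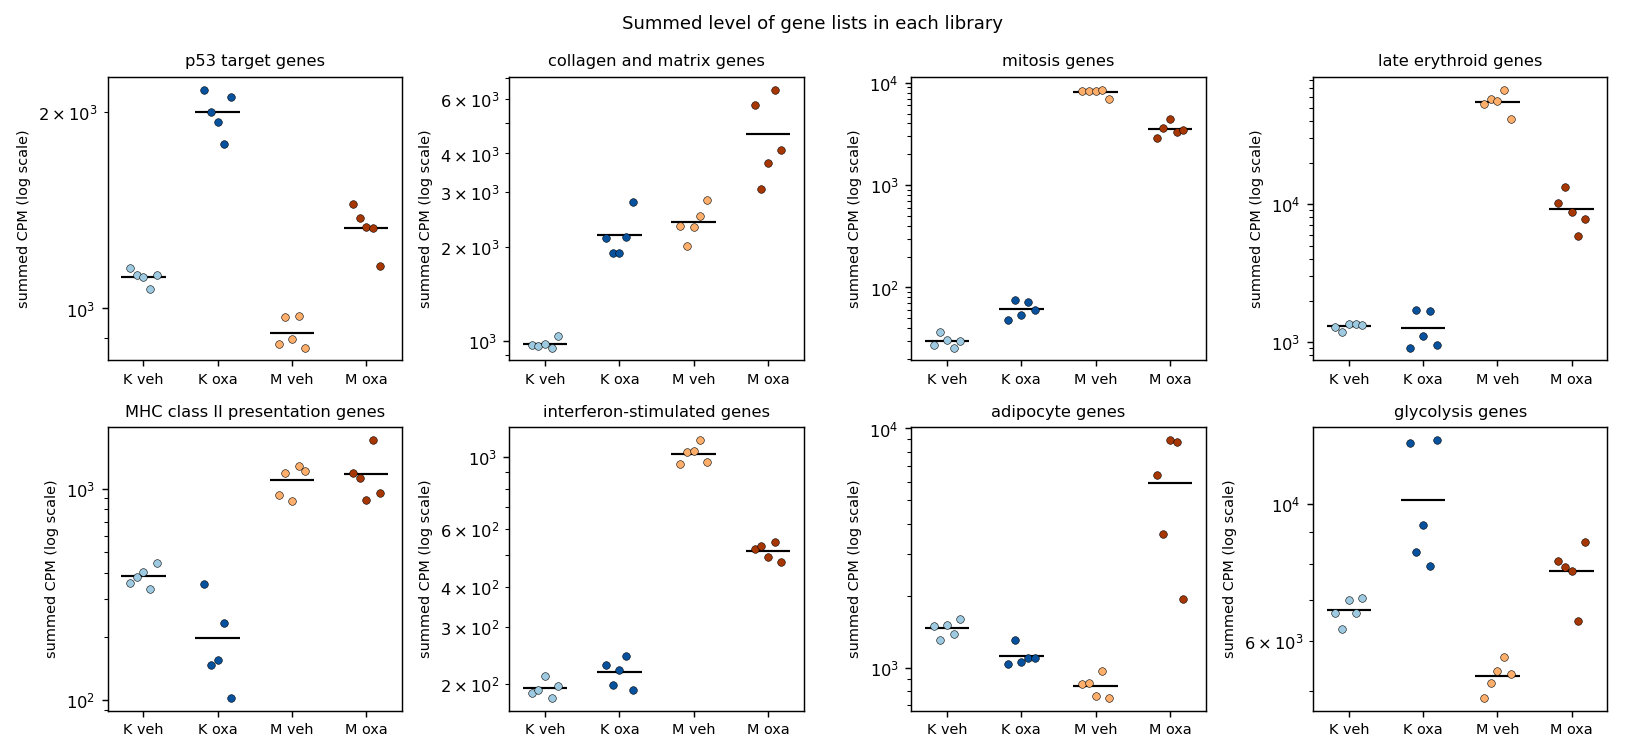
Summed CPM of 8 gene lists in each library of the 4 groups, on a log axis, each point being 1 library and each bar a mean. For late erythroid genes the marrow groups are separate at 41472 to 67177 CPM with vehicle and 5914 to 13254 CPM with oxaliplatin, and for MHC class II genes they overlap.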

How the data were processed

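RNA was sequenced from kidney and bone marrow of vehicle- and oxaliplatin-treated mice. The authors deposited 1 table per tissue of raw counts per gene, from reads aligned with STAR to Ensembl release 101 (GRCm38). Per the methods, counts came from reads that aligned uniquely and to an unambiguous gene, and Partek Flow was used after alignment. The submitters' processing notes name STAR, Subread featureCounts, Salmon and bcl2fastq without their roles. Whether strand was used is not given in the sources used here. The methods describe SMARTer cDNA, the sample records removal of ribosomal RNA with random hexamers. Each table had 55774 lines. After dropping 287 repeats of the same counts and 1 incomplete line, 55486 genes were joined, 55141 with a position in GENCODE mouse release 21. No sample column was left unused.

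Genes passing filterByExpr of edgeR 4.0.16 (minimum count 10; R 4.3.3, limma 3.58.1) in both tissues were fitted together in 20 libraries, scaled by TMM within each tissue, with a mean per group and robust quasi-likelihood dispersion. The kidney, marrow and interaction contrasts were tested two-sided with Benjamini-Hochberg adjustment over 17507 genes and called where the adjusted p was under 0.05 and the change beyond 1.5-fold. Genes passing in 1 tissue were tested there alone. Every adjusted p comes from these edgeR fits unless another tool is named. CPM are TMM-scaled, and list sums are plain sums of CPM. The 36 gene lists are described by counts and medians.

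Named genes had no overlap of groups and at least 5 mean CPM in each tissue where called. They were the 5 largest of each class and direction, or 3 for genes measured in 1 tissue. List members were named besides. Some genes that these rules name are not reported here. The members and lists were chosen with earlier results of these data known. Umod, Mpo and Xist were used as tissue checks.

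No same-number pairing of kidney and marrow was found, as the correlation of residuals ran from -0.103 to 0.206. Replicates of a group differed beyond counting noise, with chi-square per degree of freedom of at least 7.16. Alternatives were DESeq2 1.42.0, limma voom, other scalings, filters, thresholds and covariates, a replicate block, each library left out, and 3 pairs of libraries left out that were chosen after seeing the data. The steps were tested on simulated data. With 2-fold changes, the interaction was called for 32 of 50 genes changed in kidney only and 30 of 50 in marrow only. It was called for 49 of 50 changed in opposite ways, and 5.13% of its calls were false. Promoter windows came from RefSeq (GRCm38.p6). Figures used matplotlib 3.10.9 under Python 3.11.15.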

Additional observations from a re-analysis of the deposited data

Results flagged for a closer look

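The interaction test set the following apart as differing between the tissues: 4983 genes in all, 2714 with the higher response in kidney, 2269 with the lower, and 323 called in opposite directions. For the 10 opposite genes named by size, the kidney minus marrow log2 fold changes were as follows. Those higher in kidney were 3.98 for Aldh1a1, 3.87 for Aldh1a7, 3.33 for Abcc3, 3.21 for Mki67 and 3.01 for Cdc25b. Those lower in kidney were -4.51 for Ghr, -4.30 for Me1, -4.04 for Lpl and -3.20 for Slc1a4. Car4 gave -7.19, a size that depends on 0 to 6 reads per vehicle marrow. Car4 had to rise in marrow to be tested, so its value is a description and not a finding of the interaction test.

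In 460 groups of 5 libraries, of single genes or list sums, 18 held a library whose gap to its nearest neighbour was too large a part of the range of the group by Dixon's 95% critical value. Chance alone sets apart about 1 in 20 groups. Oxaliplatin marrow 5 was the lowest for Cdkn1a (83.7 CPM) and Zmat3 (66.4 CPM), and oxaliplatin kidney 5 the highest for Zmat3 (161 CPM) and for summed matrix genes (2787 CPM). Vehicle marrow 5 was the lowest for Mki67 (2907 CPM), Cdc25b (257 CPM) and summed mitosis genes (6980 CPM). The other single genes were Eda2r, highest in vehicle marrow 3 (0.637 CPM), Gclm, highest in oxaliplatin marrow 3 (202 CPM), Sesn1, highest in vehicle kidney 4 (19.0 CPM), Acadm, highest in vehicle kidney 5 (826 CPM), and Lipo3, lowest in vehicle kidney 2 (32.3 CPM). The other list sums were neutrophil genes, lowest in vehicle marrow 1 (24972 CPM), B cell genes, lowest in vehicle kidney 5 (36.1 CPM), bone and marrow stroma genes, lowest in vehicle kidney 4 (985 CPM), adipocyte genes, highest in oxaliplatin kidney 2 (1303.0 CPM), integrated stress and unfolded protein response genes, lowest in oxaliplatin kidney 1 (2166 CPM), and genes of the loop, distal tubule and collecting duct, lowest in vehicle marrow 4 (1065 CPM).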

How the results depend on the processing

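Leaving out each library in turn, the interaction was called for 4514 to 5531 genes (2414 to 2863 higher and 2100 to 2716 lower in kidney), 330 to 448 genes rose and 64 to 85 fell in both tissues, 168 to 238 rose in kidney and fell in marrow, 74 to 106 did the reverse, and 172 to 275 were kidney-restricted and 1183 to 1532 marrow-restricted. Of 9 counts, the lowest value came without oxaliplatin kidney 5 for 8. Without both oxaliplatin kidneys 1 and 5, a choice made after seeing the data, 240 genes rose and 45 fell in both tissues, 144 and 60 were opposite and 143 were kidney-restricted. Without oxaliplatin marrows 2 and 3, or 3 and 4, likewise added, none of the 9 counts moved by over 1.5 times. Library size alone gave 623 shared rises and 35 shared falls, a minimum of 10 counts in every library gave 145 genes up in kidney and down in marrow, and a covariate of Y-linked expression gave 131 kidney-restricted genes. The causes were not tested.

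The threshold set the counts by construction. Tested against 1.5-fold, the interaction was called for 2205 genes (1251 and 954), with 56 kidney-restricted and 706 marrow-restricted. A threshold of 2-fold gave 2833 (1705 and 1128), 150 and 19 shared, 64 and 26 opposite, and 52 and 503 restricted. Without a fold threshold there were 698 and 318 shared, 456 and 447 opposite, and 752 and 2718 restricted genes.

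With a replicate block the interaction was called for 4882 genes. The correlation over genes was 0.0826 by Pearson and -0.0425 by Spearman. The 107 fold changes of named genes were compared between settings by adjusted p alone, without the 1.5-fold limit. A change of sign was counted only where the main adjusted p was under 0.05. Of 3687 alternative values, 3681 were counted as the same, none as reversed, and 6 lost an adjusted p under 0.05. These were Cpox in kidney (-0.74) without oxaliplatin kidneys 1 and 5, Odc1 in marrow (-0.59) with the Y-linked covariate, and the interactions of Cfd under limma voom (-2.81) and of Hba-a1 under limma voom (1.74), the replicate block (1.91) and without oxaliplatin marrows 3 and 4 (2.29). Calls of genes with few reads in a group, such as Car4 in vehicle marrow, are limited by counting.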
